A study of Mus musculus with 38 samples.

Results

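The 10 genes described here encode the NF-κB subunits and their IκB inhibitors in mouse. They were listed by name, 5 inhibitors (Nfkbia, Nfkbib, Nfkbie, Nfkbiz and Bcl3) and 5 subunits (Nfkb1, Nfkb2, Rela, Relb and Rel), out of 21938 protein-coding genes of GENCODE vM21 on GRCm38. NF-κB is a family of dimeric transcription factors. In resting cells the IκB proteins hold the dimers in the cytoplasm, and a kinase complex releases them by marking the inhibitors for degradation. Nfkbia encodes IκBα, itself a target gene of NF-κB, while Nfkbiz and Bcl3 encode atypical IκB proteins that act mainly in the nucleus. In embryonic stem cells canonical NF-κB signalling is held low.

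The data are ChIP-seq calls, stretches enriched after immunoprecipitation of chromatin, for 5 histone modifications: H3K4me3 of active and poised promoters, H3K27me3 of Polycomb repression, H3K9me3 of heterochromatin, and H3K27ac and H3K4me1 of active and primed regulatory elements. The cells were ES-E14TG2a mouse embryonic stem cells (mESCs) grown in serum with LIF and taken undifferentiated, at 0 h. IκBα-WT mESCs carried the gene intact after transfection with non-targeting guide RNAs, and IκBα-KO mESCs had been edited with CRISPR-Cas9 and 2 guides against exon 1 of Nfkbia. The study describes 3 independent clones of each genotype, sorted for both plasmids as single cells, so each modification had 3 WT and 3 KO libraries. The labels carry a replicate number and no batch.

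For H3K4me3 the calls are MACS2 peaks with a fold enrichment over input, and each library held 21836 to 26806 of them. For the other modifications they are epic2 regions in steps of 200 bp with ChIP and input read counts. Their calls held 8910890 to 10938375 ChIP reads a library (H3K27me3), 8548342 to 12105343 (H3K9me3), 22943091 to 28339766 (H3K27ac) and 34736939 to 35951506 (H3K4me1). The stretch examined for each gene, its window, was the gene body plus 5 kb on either side. The labelled cell type was checked at the promoters of marker genes. H3K4me3 was called in all 6 libraries at 5 of 6 pluripotency markers (Pou5f1, Sox2, Nanog, Zfp42 and Klf4, but not the annotated 5′ end of Esrrb), and H3K27me3 was called in all 6 at 9 of 10 markers of other cell types. H3K27me3 was also called in all 6 at Esrrb and Klf4, and among the 10 markers of other cell types H3K4me3 was called in all 6 libraries at 3 (T, Cdx2 and Thy1) and H3K27ac at 5.

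The sites that were edited lie in the coding part of exon 1 of Nfkbia. Both guide sequences are shown because the H3K4me3 result below is read against their positions. The bases in capitals are the adjoining PAM, the motif that Cas9 needs beside its target.
Guide 1: gtggacgatcgccacgacagCGG
Guide 2: ccttcttgaggccatcccgcGGG
Guide 1 matched the minus strand, on which Nfkbia is transcribed, at chr12:55492432-55492451, and guide 2 matched the plus strand at chr12:55492460-55492479 (GRCm38.p6). The cuts expected 3 bp from each PAM lie 213 and 171 bp inside the gene and 42 bp apart. The coding stretch around them, read along Nfkbia from chr12:55492402-55492509 with both guide sites in capitals, is the following.
Nfkbia exon 1: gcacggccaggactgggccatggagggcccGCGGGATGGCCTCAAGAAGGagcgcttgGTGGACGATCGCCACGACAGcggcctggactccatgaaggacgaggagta

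At Nfkbia (ENSMUSG00000021025, chromosome 12, 55489410 to 55492647, minus strand, 6 exons), the H3K4me3 peak that covered the edited exon in the IκBα-WT mESCs was lower, broken up or absent in the IκBα-KO mESCs. The highest fold enrichment over input in the window was 13.1, 10.3 and 13.8 in the WT libraries. In the KO libraries it was 3.70, 5.21 and 5.02, so all 3 lay below all 3 WT libraries. The means were 12.4 ± 1.84 (SD, n = 3) and 4.64 ± 0.819 (SD, n = 3), with p = 0.1 in a two-sided exact permutation test, the smallest value that 3 against 3 allows. In a limma fit over the 13533 gene windows called in all 6 libraries, height changed by log2 −1.42 ± 0.23 (SE), Benjamini-Hochberg adjusted p = 0.000164. Among those windows 5.76% passed this test in the lower direction and 11.2% in the higher, and 8 had a lower ratio of means than Nfkbia.

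The drop included the exon that the guides target and was not confined to it. Mean H3K4me3 cover fell from 537 bp in WT to 292 bp in KO in the 5 kb upstream. In intron 1 it fell from 223 to 89.7 bp, and in exon 3 it was 0 bp in WT and 109 bp in KO. In each of these parts the groups overlapped. A single WT call ran over all 348 bp of exon 1 in each of the 3 WT libraries, with its summit 32, 18 and 1 bp from the nearer expected cut. Exon 1 had 0, 0 and 318 bp under H3K4me3 calls in KO 1, KO 2 and KO 3. KO 1 had no call within 1000 bp of the 5′ end, and its list of 23736 calls was within the range of the other libraries. KO 2 had calls on both sides of the exon, of 3.82-fold upstream of the gene and 5.21-fold in intron 1, and none over the cuts. KO 3 alone had a call over both expected cuts, at 4.63-fold. Over all protein-coding genes, 5901 had the first 348 bp of the gene covered in full in all 3 WT libraries, and in 1.53% of them no KO library covered it in full. A mean KO cover as low as that of Nfkbia, 106 bp, was reached by 15 of these 5901 genes, Nfkbia among them.

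**Figure D1:**
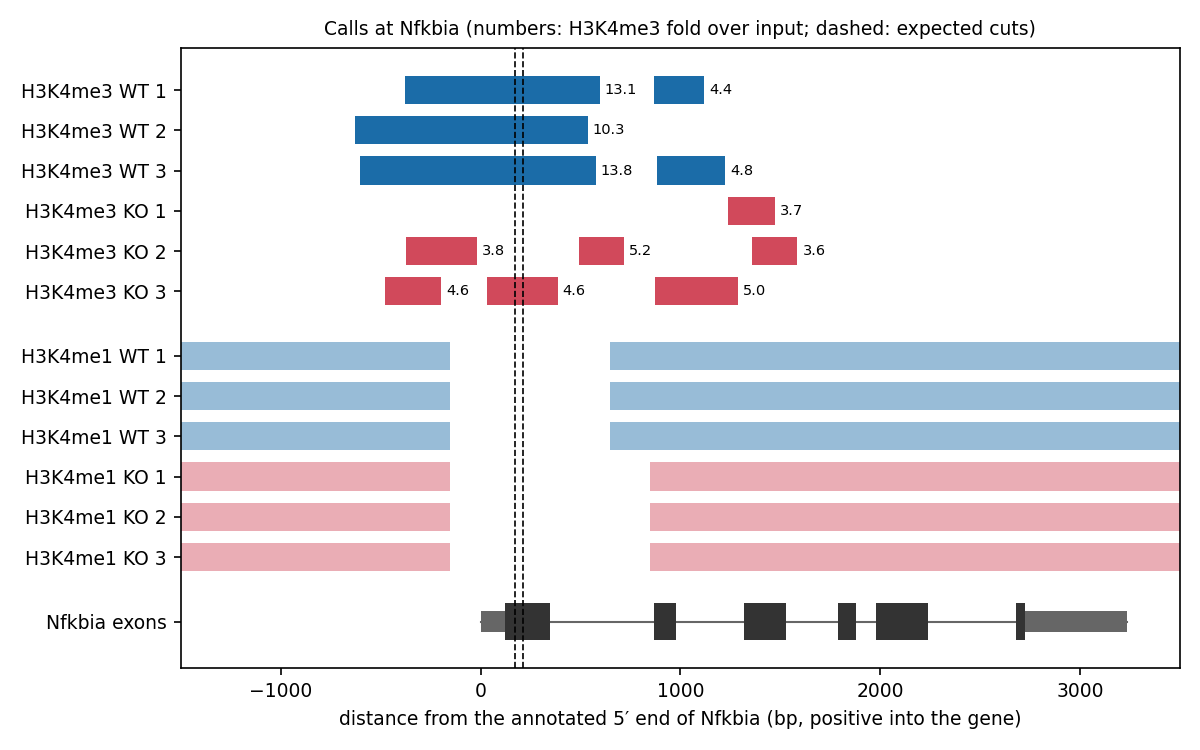
Calls around the 5′ end of Nfkbia, by distance from the annotated 5′ end (bp), for H3K4me3 (top, with the fold over input of each call) and H3K4me1 (middle) in 3 WT (blue) and 3 KO (red) libraries, with the exons (wide bars are coding) and the 2 expected cuts (dashed). Every WT library had an H3K4me3 call of 10.3- to 13.8-fold over both cuts, whereas KO 3 alone among the KO libraries had a call there, of 4.63-fold.

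Within 1000 bp of the 5′ end of Nfkbia, H3K4me3 calls covered 1108, 1168 and 1300 bp in WT and 0, 590 and 769 bp in KO, so the groups did not overlap. Groups failed to overlap in this direction at 7.14% of the 13259 genes with such a call in any library. Over the whole window the covered lengths were 1226, 1168 and 1523 bp in WT and 235, 820 and 1286 bp in KO, and there the groups overlapped (exact permutation test, p = 0.3). WT 1 and WT 3 each had a further call downstream of exon 1, of 4.36- and 4.79-fold, and each KO library had 1 or 2 calls there. Without KO 1 the limma fold change was −1.26, at an adjusted p of 0.00221.

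No other modification separated the genotypes over exon 1. H3K4me1 left the 5′ end uncalled in all 6 libraries, and this gap was wider in the KO by a single step of 200 bp in intron 1, called in all 3 WT and in no KO library. The covered length was 12438 bp in each WT library and 12238 bp in each KO library, which do not overlap, as at 15.4% of gene windows in this direction. H3K27ac covered all 13238 bp of the window in every library, as part of a region of 128200 bp, so that its calls cannot resolve the exon. H3K27me3 was called over 191 bp in WT 2 and not at all in the other libraries, and H3K9me3 in none. By covered share over the 30 ChIP libraries, the protein-coding genes nearest to Nfkbia were Hist1h4d, Spc24 and Degs1, at Euclidean distances of 9.87, 10.2 and 11.6 percentage points. Input reads within 500 kb of its 5′ end differed by log2 0.05 (KO over WT, H3K4me1 regions). The H3K4me3 lists give no input reads.

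The promoter sequence of Nfkbia is shown because the WT peak runs over it and IκBα is a textbook target of NF-κB. Capitals mark the match to the κB consensus, which was searched on both strands of the 250 bases before the start (RefSeq, GRCm38.p6, minus strand, chr12:55492648-55492897).
Nfkbia promoter: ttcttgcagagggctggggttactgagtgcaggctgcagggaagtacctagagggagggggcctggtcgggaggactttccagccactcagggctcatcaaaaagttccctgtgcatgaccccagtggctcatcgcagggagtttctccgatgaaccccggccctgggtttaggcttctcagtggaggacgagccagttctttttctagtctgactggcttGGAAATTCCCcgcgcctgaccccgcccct
Of the members, 7 matched an entry of the RefSeq promoter table (all but Nfkbiz, Nfkb1 and Relb), with 9 promoters in all. A κB match was found in 6 of the 9, those of 4 genes, and in 3.90% of all 32851 promoters. Several of the 6 belong to Nfkb2. The median share of G and C bases was 64.8% in the members' promoters and 52.4% over all, and the comparison was not adjusted for it. The first match of each gene, with the bases around it, is shown for comparison between members.
Nfkbia: tggcttGGAAATTCCCcgcgcc
Nfkbie: caaacaGGGGGATTCCggaggg
Nfkb2: cgtcacGGGAATTCCCCccctc
Rel: agcagcGGGAAATCCCCccccc
These lie at chr12:55492661-55492682, chr17:45555588-45555609, chr19:46304692-46304713 and chr11:23771046-23771067, and lie 29, 106, 39 and 92 bases before the RefSeq start. In Nfkb2 and Rel a pair of overlapping matches runs together, so 11 bases are in capitals. Nfkbib, Bcl3 and Rela had no match in this window.

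Among the other IκB inhibitors, H3K4me3 within 1000 bp of the 5′ end did not separate the genotypes. At Nfkbib, which encodes IκBβ, the highest call reaching into that stretch was 7.85, 7.34 and 10.7 in WT and 12.1, 13.1 and 10.7 in KO, which overlapped (limma log2 fold change 0.48 ± 0.22, SE, adjusted p = 0.129). By GENCODE its summit lay 1095 to 1223 bp inside Nfkbib and nearer to the 5′ end of Sirt2, a deacetylase gene. The RefSeq start of Nfkbib differs from the GENCODE 5′ end by −868 bp, inside the gene, and is nearer to these summits than Sirt2 is. The call was therefore not assigned to either gene. A call with its summit near the GENCODE 5′ end of Nfkbib was seen only in WT 1 (2.59) and KO 2 (4.33). Nfkbie, which encodes IκBε, had 10.8, 5.78 and 8.15 in WT and 7.36, 8.51 and 11.9 in KO. At Bcl3 the values were 11.5, 6.88 and 12.3 in WT and 12.6, 8.68 and 10.96 in KO. Nfkbiz had a weak call of 8.36, 5.04 and 5.34 in WT and of 6.04 and 4.11 in KO 2 and KO 3, and none in KO 1. Its highest calls lay 16848 to 16960 bp downstream of the annotated 5′ end, inside the gene, at 14.3, 12.9 and 18.1 in WT and 18.9, 20.9 and 21.4 in KO. These did not overlap, but limma gave log2 0.45 ± 0.18 (SE), adjusted p = 0.0769.

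In the Nfkbie window the higher H3K4me3 of the KO libraries lay at a neighbouring gene. Limma gave 0.91 ± 0.19 (log2, SE) for that window, adjusted p = 0.00145. The highest KO calls of 21.2, 24.4 and 17.3 had their summits 244 to 587 bp from the 5′ end of Slc35b2, a sugar nucleotide transporter gene, where the WT calls reached 8.49, 11.4 and 10.9. At Bcl3 the change was in covered length, which was 2968, 2858 and 3213 bp in WT and 3734, 4531 and 4251 bp in KO, without overlap. In every library it had calls at the 5′ end, 1895 to 2100 bp upstream and up to 6661 bp inside the gene.

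**Figure D2:**
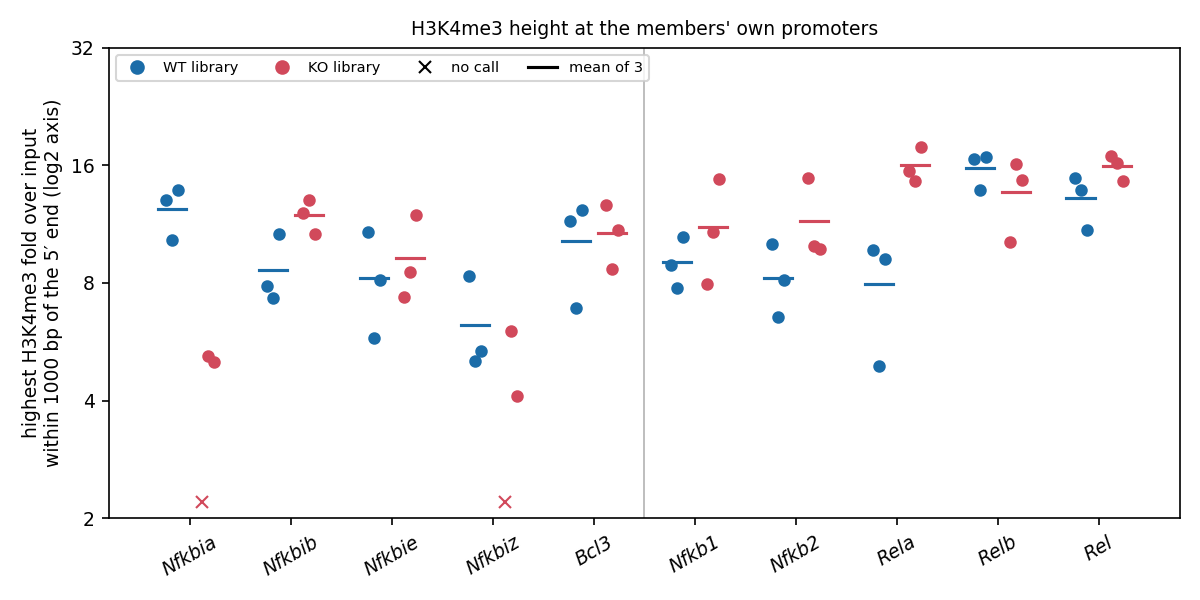
Highest H3K4me3 fold over input within 1000 bp of the 5′ end of each member (log2 axis) in 3 WT (blue) and 3 KO (red) libraries, with means (lines) where all 3 libraries had a call and crosses where there was none. At Nfkbib the call lies near both the RefSeq start of Nfkbib and the 5′ end of Sirt2. Nfkbia is below all its WT values in the KO libraries that have a call, and Rela is above all its WT values in every KO library.

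Of the NF-κB subunits, Rela rose at its own promoter. Rela encodes p65, the activating partner of the most common dimer. Its highest H3K4me3 call was 9.73, 4.89 and 9.22 in WT and 15.5, 14.6 and 17.9 in KO, so every KO library was above every WT library. The means were 7.95 ± 2.66 and 15.99 ± 1.68 (SD, n = 3 each, exact permutation p = 0.1). Limma gave log2 1.07 ± 0.24 (SE), adjusted p = 0.00402, over the 11623 own promoters called in all 6 libraries, of which 11.8% rose and 6.19% fell. The covered length within 1000 bp of the 5′ end overlapped between genotypes, at 1476, 1458 and 1526 bp in WT and 1470, 1634 and 1540 bp in KO. The WT value of 4.89 was the lowest of the 6, and without WT 2 limma gave log2 0.75 at an adjusted p of 0.0193 in the fit over windows.

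Relb, which encodes the partner of p52 in the non-canonical pathway, showed wider H3K4me3 at its promoter without greater height. Calls covered 473, 501 and 469 bp within 1000 bp of its 5′ end in WT and 831, 841 and 1005 bp in KO, which did not overlap. Groups did not overlap in this direction at 17.6% of genes. The highest fold at that promoter was 16.6, 13.8 and 16.8 in WT and 10.2, 16.2 and 14.7 in KO (limma log2 fold change −0.23 ± 0.20, SE, adjusted p = 0.46). In its window the highest KO calls, of 19.4, 22.7 and 18.7, lay at the promoter of Clasrp, a splicing regulator gene.

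Nfkb1 (p105 and p50), Nfkb2 (p100 and p52) and Rel (c-Rel) had overlapping H3K4me3 values. The highest folds at Nfkb1 were 8.91, 7.77 and 10.5 in WT and 7.94, 10.8 and 14.7 in KO. Those at Nfkb2 were 10.1, 6.56 and 8.15 in WT and 14.9, 9.94 and 9.79 in KO. At Rel they were 14.8, 13.8 and 10.9 in WT and 16.9, 16.2 and 14.6 in KO. In the limma fit over own promoters their log2 fold changes of 0.26, 0.48 and 0.28 had adjusted p-values of 0.467, 0.163 and 0.323.

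Counted over whole windows, H3K4me3 calls covered more bp in every KO than in every WT library at 4 of the 10 members (Nfkbie, Bcl3, Rela and Relb) and less at none, against 24.5% and 7.25% of all 15151 windows with a call. By height in the window, 4 members were higher without overlap (Nfkbie, Nfkbiz, Rela and Relb) and Nfkbia lower, against 20.4% and 13.1% of 13533 windows. Limma called 2 of the 10 higher (Nfkbie and Rela) and Nfkbia lower, against 11.2% and 5.76% of those windows. Over the members the median log2 fold change of height was 0.41, and over all windows it was 0.06. Window heights include calls at neighbouring genes such as Slc35b2 and Clasrp. At own promoters the median log2 ratio of mean heights was 0.29 over the 8 members called in all 6 libraries, without Nfkbia and Nfkbiz. Over all such promoters it was 0.07. Of those members limma called Rela alone.

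H3K27me3 was present at the promoters of some members. It was called within 1000 bp of the 5′ end in all 6 libraries at Nfkbie, Nfkbiz, Nfkb1, Nfkb2 and Rel, in 2 libraries at Nfkbib and in none at Nfkbia, Bcl3, Rela and Relb. Over all genes 29.1% of promoters had a call in all 6 libraries. All 5 genes with it in every library also carried H3K4me3 at that promoter, in every library but KO 1 of Nfkbiz. Nfkb2 had the most, with calls over 16985 to 18066 bp of its 18066 bp window in the 6 libraries. At Bcl3 no library had a call in the window.

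By H3K27me3 cover the groups did not overlap at 1 of the 10 members, Nfkb1, the gene of the p105 precursor, close to the 7.61% of 13437 windows that went this way (10.9% went the other). Calls covered 12547, 12947 and 20347 bp of its window in WT and 7347, 9147 and 4200 bp in KO, a difference of −8382 bp (exact permutation p = 0.1). Cover of the promoter itself overlapped, at 1947, 1547 and 2001 bp in WT and 2001, 1747 and 1947 bp in KO. Read density in the region at its 5′ end, given as CPM (ChIP reads scaled to the library's total over tested regions and adjusted for covered length), was 43.9, 46.6 and 41.1 in WT and 40.5, 36.3 and 38.3 in KO. The edgeR quasi-likelihood test gave log2 −0.19 ± 0.09 (SE), Benjamini-Hochberg adjusted p = 0.337.

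None of the 7 members with an H3K27me3 region in all 6 libraries passed that edgeR test, with 2 at an unadjusted p under 0.05, and DESeq2 called none. Over all 18809 regions 1.70% were called higher and 1.04% lower. The nearest to the threshold was a region that starts downstream of Rela (chromosome 19, 5649601 to 5668200) and reaches 3530 bp into its window. It held 56.6, 50.4 and 46.5 CPM in WT and 62.4, 60.6 and 69.9 in KO (log2 fold change 0.33 ± 0.09, SE, edgeR adjusted p = 0.0717). Without WT 1 edgeR gave log2 0.40 (adjusted p = 0.04), and with input reads in the offset 0.33 (adjusted p = 0.0228).

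H3K9me3 was called in the windows of 3 members only (Nfkbie, Bcl3 and Relb), and at no member's promoter. Of all genes 55.2% had a call in the window in at least 1 library, and 11.3% at the promoter. At Bcl3 a region over the 3′ part of the gene (chromosome 7, 19808401 to 19816200) covered 7800, 7600 and 7800 bp in WT and 7000, 7000 and 7400 bp in KO. The groups did not overlap, as at 11.4% of 12110 windows in this direction and 4.76% in the other. Its CPM was 63.0, 69.2 and 63.0 in WT and 55.1, 55.9 and 52.3 in KO, again without overlap. EdgeR gave log2 −0.26 ± 0.09 (SE), adjusted p = 0.36, and with input reads in the offset log2 −0.29, adjusted p = 0.0338. Neither of the 2 members tested for H3K9me3 was called by edgeR (1 at an unadjusted p under 0.05) or by DESeq2, and 0.168% of 27342 regions were called higher and 0.267% lower.

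**Figure D3:**
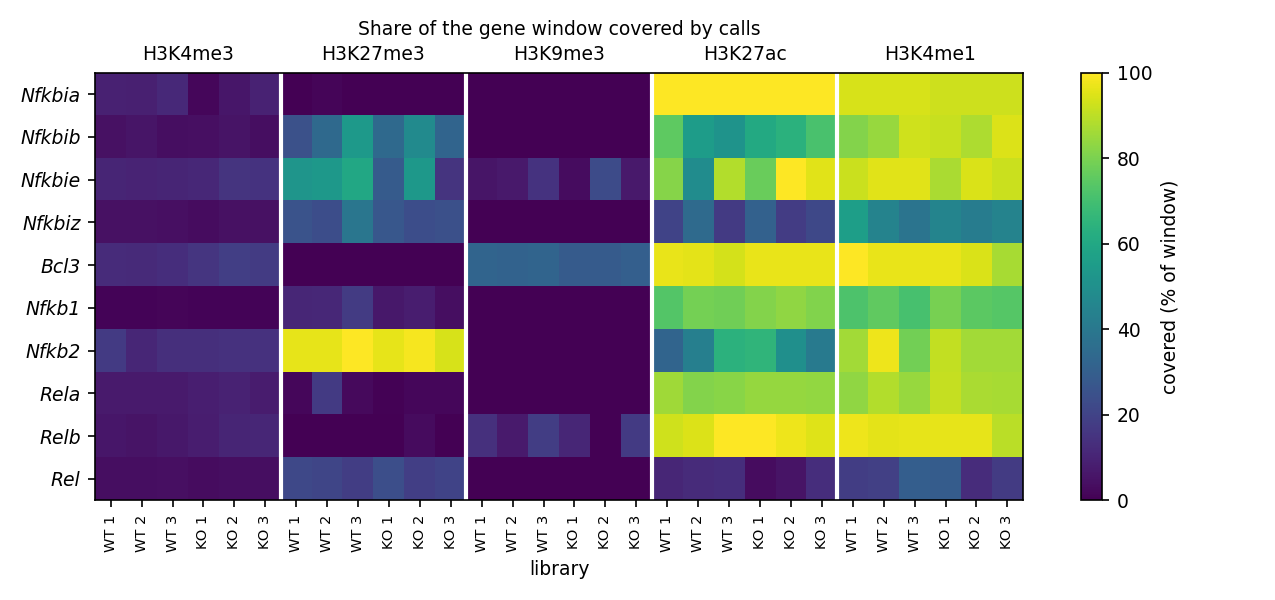
Share of each member's window (%) under calls in the 30 ChIP libraries, by modification and library. H3K27me3 fills the Nfkb2 window and is missing from Bcl3, H3K9me3 is seen only at Nfkbie, Bcl3 and Relb, and H3K4me1 covers the least of the windows of Nfkbiz and Rel.

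H3K27ac read density rose in the IκBα-KO mESCs at 5 of the 10 members and fell at none with TMM scaling. Without it only Nfkb1 was called higher and 4 members (Nfkbib, Nfkbiz, Nfkb2 and Rel) were called lower. Over all 24039 regions 465 were called higher and 9751 lower without TMM. With TMM the density at Nfkb1 was 395, 391 and 398 CPM in WT and 512, 500.1 and 503 in KO, log2 0.36 ± 0.02 (SE), edgeR adjusted p = 3.25e-07. At Nfkbie it was 407, 451 and 431 in WT and 537, 504 and 516 in KO (log2 fold change 0.27 ± 0.03, SE, edgeR adjusted p = 0.000258). At Nfkbia it was 358, 361 and 373 in WT and 441, 432 and 423 in KO (0.25 ± 0.02, SE, edgeR adjusted p = 3.18e-05). The smaller changes were at Relb, with 373, 386 and 376 in WT and 418, 405 and 424 in KO, and at Bcl3, with 254, 248 and 253 in WT and 279, 272 and 267 in KO. Their log2 fold changes were 0.14 and 0.12, at edgeR adjusted p-values of 0.00251 and 0.00935. Every KO library lay above every WT library at all 5 genes. The Nfkb1 region lies over the 3′ part of the gene and beyond, not over its promoter.

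The size of the region went with these calls. Over all 24039 regions 8.19% were called higher and 4.56% lower, but among the 669 regions of at least 80 kb 60.8% were called higher. The 5 members that rose lie in regions of 82600 to 131400 bp, which hold neighbouring genes too, and the other 5 members have regions of 14200 to 42800 bp, of which none was called. For Nfkb1 the covered length of H3K27ac also rose without overlap, from 85746, 92546 and 91346 bp to 95146, 97546 and 94546 bp, as at 21.6% of windows, with 8.20% the other way. The scaling changed these values. Without TMM the median of all regions moved from −0.01 to −0.20 and the sign at Bcl3 and Relb turned. Relative to that median Nfkbia was 0.26 higher and Bcl3 0.13 higher under both scalings. A change of scaling moves all regions by nearly the same amount, so this equality holds by construction and does not test the calls.

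H3K4me1 differed less. Of the 10 members, 2 were called lower and none higher by edgeR (5 at an unadjusted p under 0.05), against 1.64% and 4.00% of 44625 regions. Nfkbib had 199, 189 and 188 CPM in WT and 182, 177 and 176 in KO, and Nfkb2 had 130.0, 124 and 130.0 in WT and 119.9, 120.1 and 118 in KO. The log2 fold changes were −0.10 ± 0.02 and −0.10 ± 0.03 (SE), with edgeR adjusted p-values of 0.0253 and 0.0406, and neither overlapped. With TMM on the raw counts neither was called, and 4 other members (Nfkbia, Nfkbie, Nfkb1 and Relb) were called higher. That scaling moved the median of all regions from −0.0037 to 0.053, and 3327 of 44625 regions were called higher and 347 lower. Relative to that median Nfkbia was at 0.064 and Nfkbib at −0.0998 under both scalings, which again holds by construction and does not choose between them. Each lower call with TMM on length-adjusted counts depended on single libraries. Nfkbib lost it without WT 1, KO 2 or KO 3 (adjusted p 0.0988, 0.1 and 0.115 in edgeR), and Nfkb2 without WT 1, WT 3, KO 1, KO 2 or KO 3 (adjusted p 0.135, 0.137, 0.0978, 0.0974 and 0.149 in edgeR). With the replicate number as a block, Nfkb2 was no longer called either (edgeR adjusted p = 0.0662).

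**Figure D4:**
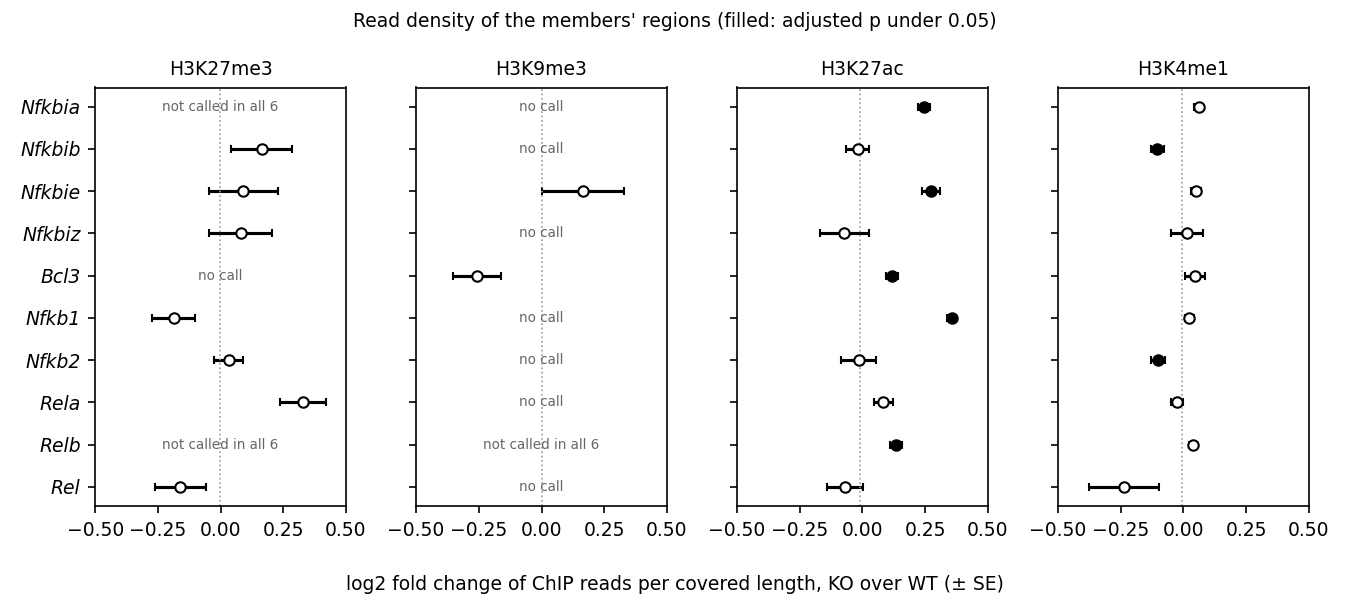
Log2 fold change (KO over WT) of ChIP reads per covered length at the region of each member, with SE bars from the edgeR fit, for 4 modifications with 3 WT and 3 KO libraries each. Filled points passed an adjusted p of 0.05 and dotted lines mark the median of all regions. The 5 filled H3K27ac points lie between 0.12 and 0.36 (those of Bcl3 and Relb change sign without TMM scaling), and the 2 filled H3K4me1 points at −0.10.

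Input reads were checked beside these values because a ChIP density can move with them. Within 500 kb of the members' 5′ ends the log2 ratio of input reads per kb in H3K4me1 regions, KO over WT, ran from −0.06 to 0.05. In the regions tested it varied more, from −0.20 to 0.17 for H3K27ac, −0.17 to 0.11 for H3K27me3 and −0.09 to 0.12 for H3K4me1, and was 0.22 at Nfkbie and 0.03 at Bcl3 for H3K9me3, a range that reaches past several of the called log2 fold changes above. Within 500 kb the H3K9me3 input ratio reached 0.25 at Bcl3, Rela and Relb. The part of input in those calls was not tested beyond the offset. With the input reads added to the offset, edgeR called the same 5 members for H3K27ac. Of 58 other genes of the pathway, 4 lay beyond 0.3 in either direction, namely Traf3 at −0.995, and Cyld, Tlr3 and Tradd at 0.44, 0.48 and 0.52.

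**Figure D5:**
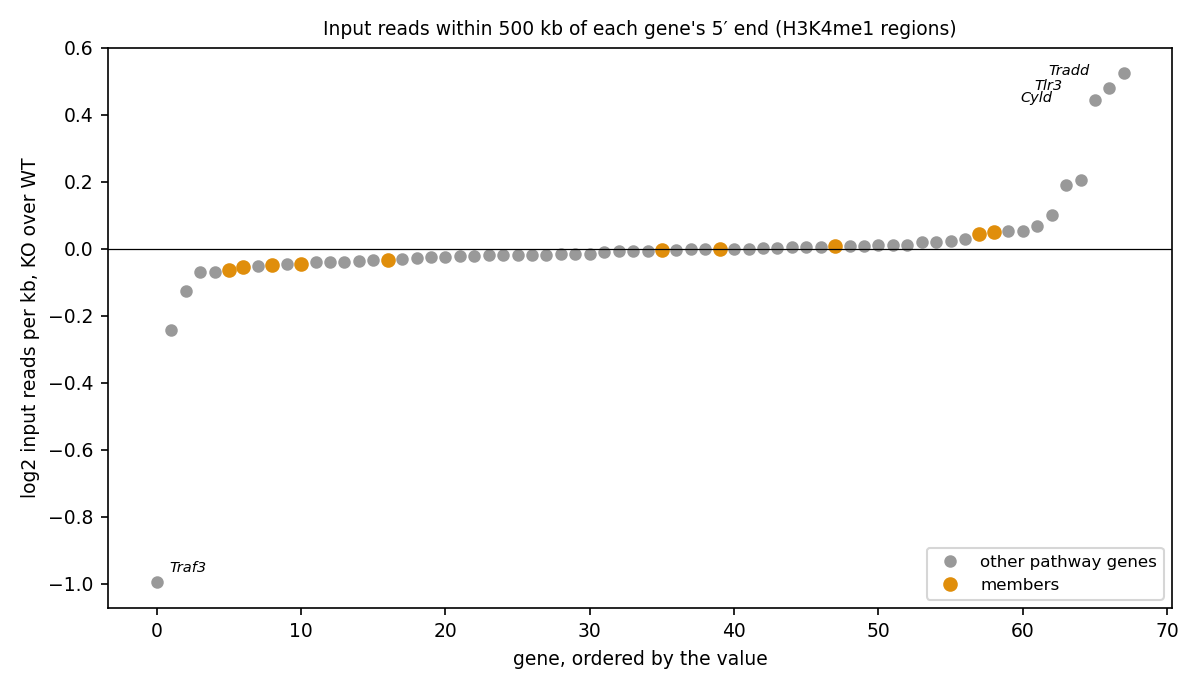
Log2 ratio of input reads per kb, KO over WT, in the H3K4me1 regions within 500 kb of the 5′ end of each of 10 members (orange) and 58 other pathway genes (grey), 1 input per genotype, ordered by value. All members lie between −0.06 and 0.05, and Traf3 lies at −0.995.

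The 58 other genes of the pathway, chosen with earlier results of these data known, are its receptors, ligands, adaptors, kinases, further IκB-like proteins, and ubiquitin ligases, deubiquitinases and their cofactors. For H3K4me3 height, 46 had a window called in all 6 libraries, with a median log2 fold change of −0.09. Limma called 6 of the 46 higher and 2 lower, against 11.2% and 5.76% of all 13533 windows. The 2 that fell were Traf2, a ubiquitin ligase adaptor of the TNF receptor, and Tnip1, which binds A20. They are named after their values were seen. Traf2 had a highest fold of 10.7, 9.63 and 10.8 in WT and 4.85, 4.73 and 5.15 in KO, at its own promoter (limma log2 fold change −1.08 ± 0.22, SE, adjusted p = 0.00153 in the fit over windows), and Tnip1 had a log2 fold change of −0.76 ± 0.23 (SE, limma adjusted p = 0.0253), with no call at its annotated 5′ end. In covered length, the groups did not overlap for H3K4me3 at 7 of the 58 genes, all higher, a smaller share than the 24.5% of all windows with a call. The largest differences were at Tab1 (820 bp more) and Ikbkg (777 bp more), which encode a subunit of the TAK1 complex and NEMO.

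For H3K27ac edgeR called 6 of 40 tested pathway genes higher and none lower, against 8.19% and 4.56% of all regions. The largest changes were at Tab1 and Tnip1, both at log2 0.26. For H3K4me1 it called 4 of 54 higher and 2 lower, against 4.00% and 1.64%. None of 29 genes tested for H3K27me3 or of 13 tested for H3K9me3 was called by edgeR. With input reads in the offset the counts were 6 higher and 4 lower for H3K27ac, and 8 and 6 for H3K4me1. Over all regions that offset called 2764 and 2578 of 24039, and 4558 and 4273 of 44625. For H3K27me3 it called 4 pathway genes higher and 1 lower (1235 and 1174 of 18809 regions), and for H3K9me3 1 lower (3108 of 27342 regions). Other scalings were not run for these genes. Among the H3K4me1 calls, those that rose most were Tradd, the adaptor of TNF receptor signalling, at log2 0.33 ± 0.02 (SE, edgeR adjusted p = 4.13e-07), and Tab2, at 0.20 ± 0.03 (SE, edgeR adjusted p = 0.00125). Those that fell were Cd40 and Traf3.

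At Traf3, the adaptor that keeps the non-canonical pathway off, H3K27ac calls covered 52353, 43984 and 46984 bp in WT and 2200, 4000 and 0 bp in KO. H3K4me1 there covered 49984, 72384 and 74784 bp in WT and 19384, 20553 and 23553 bp in KO, and H3K27me3 covered 9184, 6984 and 7584 bp against 2953, 3184 and 3753 bp. None of these overlapped. H3K4me3 height at its promoter overlapped, at 11.7, 8.38 and 9.52 in WT and 9.48, 9.39 and 7.77 in KO. The H3K4me1 density at its 5′ end changed by log2 −0.55 ± 0.12 (SE, edgeR adjusted p = 0.0141), while input reads in the same region changed by −0.83. With input reads in the offset the value was 0.27 (edgeR adjusted p = 0.172).

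Cd40, a TNF receptor family member that signals through Traf3, lost calls of several modifications together. H3K27me3 covered 19748, 19548 and 20522 bp in WT and 12748, 9348 and 4348 bp in KO, and H3K27ac covered 6548, 10348 and 16748 bp in WT and none in any KO library. The H3K4me1 region tested lies over the 3′ part of the gene. Its density was 24.7, 22.6 and 24.3 CPM in WT and 13.9, 13.4 and 13.6 in KO (log2 fold change −0.81 ± 0.07, SE, edgeR adjusted p = 3.83e-06), and input reads in that region changed by log2 −0.96, against −0.0012 within 500 kb of its 5′ end. With input reads in the offset the log2 fold change was 0.14 (edgeR adjusted p = 0.139). At Tradd, where input changed by log2 0.52, that offset turned the value to log2 −0.19 (edgeR adjusted p = 0.000303). The part of copy number or any other source of the input difference in these values was not tested.

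Calls at other genes of the pathway also differed in covered length. Btrc, a ubiquitin ligase subunit that recognises phosphorylated IκB, had 17680, 21080 and 24080 bp of H3K27ac in WT and 9067, 11467 and 6280 bp in KO. Il1r1, a receptor of interleukin-1, had 11400, 10600 and 11800 bp of H3K9me3 in WT and 7400, 6600 and 9400 bp in KO. Neither gene's groups overlapped, as at 8.20% of all windows with a call in this direction for H3K27ac and 11.4% for H3K9me3. Of 54 pathway genes with an H3K27ac call, 9 were lower without overlap and 7 higher, against 8.20% and 21.6% of all windows with a call. Of 24 with an H3K9me3 call, 4 were lower and 0 higher, against 11.4% and 4.76%.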

How the data were processed

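ChIP-seq calls of 30 libraries (5 modifications, 3 WT and 3 KO each) were analysed. Per the study's methods and the submitters' processing notes, the authors trimmed reads (Trim Galore 0.6.6), aligned them to GRCm38 (Bowtie2 2.4.4), removed multimapping and low-quality reads and marked duplicates (SAMtools 1.15). Each library was called against the input of its genotype, with MACS2 2.2.7.1 for H3K4me3 and epic2 for the others (the notes list SICER 0.0.52). The processing of H3K9me3 is not given in the sources used here, and the labels and methods name different antibodies for H3K27ac. The authors deposited, for H3K4me3, a fold enrichment ratio, a score and −log10 p- and q-values, and for the others ChIP and input read counts, p-values with an FDR, a log2 fold change over input and a score. All deposited calls had an FDR or q under 0.05. A fold enrichment depends on the depth of the input, and an uncalled stretch can hold reads.

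Covered bp, calls and height were taken per gene window. For counts, calls of the 6 libraries were merged, and regions called in all 6 with a mean of at least 10 reads were tested with edgeR 4.0.16 (quasi-likelihood, log covered length as offset, TMM on length-adjusted counts, Benjamini-Hochberg over all regions). A gene took the region that covered most of its window. H3K4me3 height was tested by exact permutation and, as an analysis added after the data were seen, by limma 3.58.1 on log2 values. Fits were tested on simulated data. The members and lists were chosen with earlier results of these data known. All members were named. Of the other pathway genes those with the largest called changes without overlap (2 per direction by edgeR, 2 by covered bp) were named per modification, and those named otherwise are marked. A gene that this rule picks is not reported here. P-values measure the spread between libraries, whose labels give a replicate number and no clone name. For each modification all libraries of a genotype share the same input. An error in that input goes with genotype and is not part of the spread that the p-values measure. The limit applies to H3K4me3 height, a fold over input, and to the fits with input reads in the offset.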

Additional observations from a re-analysis of the deposited data

How the results depend on the processing

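The H3K4me3 drop at Nfkbia kept its direction and its call in limma without each library in turn (log2 −1.55 to −1.26), with median-centred libraries and with the replicate number as a block. The limma fits and the input offset for pathway genes were added after seeing the data. For H3K27ac, TMM on raw counts left 3 calls, all higher (Nfkbia, Nfkbie and Nfkb1), with Bcl3 at −0.0036 and Rela at −0.038. Over all 24039 regions that setting called 721 higher and 4459 lower. Without TMM the count was again 5, but 1 higher and 4 lower, against 465 and 9751 of all 24039 regions. Bcl3 was then at −0.071, Rela at −0.11 and Relb at −0.054. For H3K4me1 the calls numbered 4 with TMM on raw counts (Rela 0.032), 6 over regions of like length (Nfkbiz −0.0093, Bcl3 −0.13, Rela 0.019) and 5 with input in the offset (Nfkbiz −0.096, Bcl3 −0.037, Nfkb1 −0.055). In that order, these settings called 3327 regions higher and 347 lower of 44625, 2567 and 2191 of 10959, and 4558 and 4273 of 44625. Without TMM H3K4me1 turned to −0.010 at Nfkbiz and −0.00053 at Nfkb1. The causes were not tested.

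The replicate numbers do not pair the clones (no correlation of same-numbered deviations was above 0.027), although for H3K4me1 every library was closest to its own number. A replicate block left 1 H3K4me1 call in place of 2 and 5 H3K27ac calls. Over all regions it called 1552 higher and 572 lower of 44625 for H3K4me1, and 1822 and 1022 of 24039 for H3K27ac.

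For H3K27me3, without TMM Nfkbiz turned to −0.022 and Nfkb2 to −0.073, and with TMM on raw counts to −0.012 and −0.063. Input in the offset gave 1 call each for H3K27me3 and H3K9me3, with Nfkbie at −0.058 for H3K9me3. Over all regions it called 1235 higher and 1174 lower of 18809, and 3193 and 3108 of 27342. Regions of like length gave 1 call for H3K9me3, against 218 higher and 233 lower of 3156. For H3K27ac, input in the offset turned Nfkbib to 0.035, Nfkb2 to 0.066 and Rel to 0.14. Median centring turned the H3K4me3 height at Bcl3 to −0.041. Leaving out a library gave 0 to 1 edgeR calls for H3K27me3 and 0 to 2 for H3K4me1. Over all regions these fits called 179 to 254 higher and 87 to 243 lower of 18809 for H3K27me3. For H3K4me1 they called 1241 to 1372 higher and 417 to 472 lower of 44625.

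In covered bp, H3K4me3 had 2 members without overlap over the gene body alone and 2 within 1000 bp of the 5′ end, where Nfkbie turned to −45 and −16 bp. Within 1000 bp H3K27me3, H3K9me3 and H3K27ac had 0, Nfkb1 H3K27me3 turned to 66.7 bp, and by height there was 1 member, with Relb at −0.21. The same number of top-ranked calls gave 2 for H3K27me3. H3K4me1 had 2 over the gene body and 2 with 10 kb, and with 10 kb Nfkbia H3K27me3 was −733 bp. Without 1 library the counts ran from 1 to 2 for H3K27me3, 1 to 4 for H3K27ac and 1 to 3 for H3K4me1. Such groups, of 3 and 2 libraries, fail to overlap more easily than groups of 3. Over all genes, H3K4me3 cover within 1000 bp was higher without overlap at 17.6% and lower at 7.14% of 13259. Height there was higher at 20.9% and lower at 13.9% of 11623. For the other settings no share over all genes is given, so their counts show neither an excess nor a lack.

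Some small log2 values changed sign when 1 library was left out. For H3K27me3 the ranges were −0.024 to 0.26 at Nfkbib, −0.069 to 0.29 at Nfkbie and −0.0099 to 0.20 at Nfkbiz. For H3K27ac they were −0.045 to 0.022 at Nfkbib, −0.17 to 0.0021 at Nfkbiz and −0.053 to 0.025 at Nfkb2. They were −0.023 to 0.039 for H3K4me1 at Nfkbiz and −0.16 to 0.19 for H3K4me3 height at Bcl3.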
